A study of Cyanidioschyzon merolae strain 10D with 4 samples.

Results

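The genes described here are 73 abundant nuclear genes of the unicellular red alga Cyanidioschyzon merolae, strain 10D, whose transcript levels were close to equal in blue light and in darkness. They were selected on the measured levels themselves, from the 5100 genes of the deposited table. A gene was included when it lay on a numbered chromosome at a locus shared with no other gene, spanned at least 300 bp, had an ID starting with CM, had at least 400 FPKM in both conditions and had a ratio of blue light over darkness between 0.8 and its inverse, 1/0.8. FPKM counts fragments per kilobase of a gene's length, scaled to library depth. The length behind the deposited values, fitted from genes spanning at least 650 bp, was the span less 162 to 173 bp. Relative to fragments over the full span, this raises the levels of shorter genes more. Below 650 bp the length was not fitted. A total of 74 genes met these limits, and 1 of them was among 20 IDs that were left out by name. Because the levels in both conditions chose the genes, their steadiness is a description and was not tested.

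RNA was sequenced from wild-type cells in 4 libraries. The cells of 2 libraries received blue light for 30 minutes at an intensity of 15 µmol m-2 s-1, and the other 2 libraries came from cells kept in darkness. All cells carried the same wild-type genotype and were grown in the same medium, 2xMA. The treatment text attached to the darkness samples repeats the blue light exposure, so the titles of the samples set the groups. The sample labels do not name separate cultures for the libraries of 1 condition, so the spread between these may be technical.

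Cyanidioschyzon merolae lives in hot, acidic springs, and its small cell holds a single nucleus, a single chloroplast and a single mitochondrion. In algae, blue light is absorbed by chlorophyll and by photoreceptor proteins of the cryptochrome family, and a light period after darkness alters the transcript levels of many nuclear genes, those for photosynthesis among them. Transcripts kept at a high level usually encode products a cell needs in quantity. Which products the 73 genes encode is not annotated in the files used here: all 73 matched a locus tag of the reference gene table, all 73 are listed there as protein coding, and 0 have a symbol. The genes are therefore called by their IDs, with no role given to any of them, and they are ordered by level, ratio, spread, length and position.

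Most tested genes of the series were called changed by the authors. With a q-value under 0.05 as the threshold, the authors' deposited table called 2396 of 4503 tested genes, which is 53.2% of them. Of 4188 tested nuclear genes at unshared loci of at least 300 bp, 1059 or 25.3% had a ratio inside the limits. At such loci, and again without the IDs left out by name, 261 nuclear genes reached at least 400 FPKM in both conditions. Abundant nuclear genes at shared loci or with shorter spans are not counted. Of the 261 genes, 145 or 55.6% were called changed by the authors, 81 of them higher and 64 lower in blue light. Of the 73 steady genes 0 were called in the authors' deposited table, and also 0 at an unadjusted p-value under 0.05. Nothing can be read from that 0, because the ratio limits lie at 0.32 on the log2 scale and the smallest change called in any gene of the table, in CMK095C, was a fall by 0.45. A culture's RNA was measured in bulk, so fewer cells making a transcript and less of it per cell cannot be told apart.

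**Figure D1:**
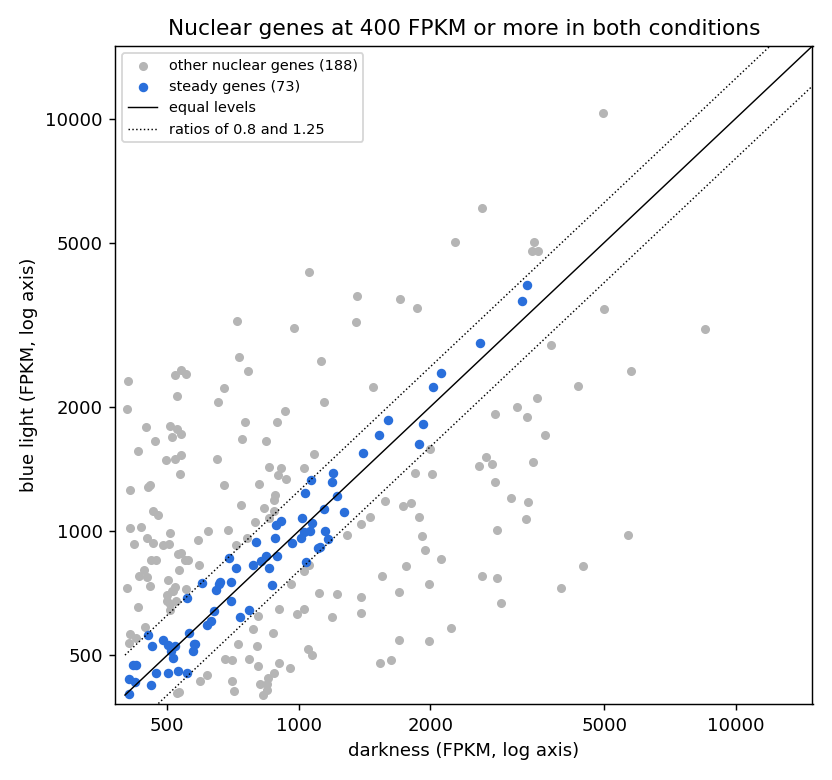
Level in blue light (vertical) against darkness (horizontal), both in FPKM on log axes, for the 261 abundant nuclear genes. These lie at unshared loci of at least 300 bp and have 400 FPKM or more in both conditions, left-out IDs excepted. The 73 steady genes, in blue, lie between the dotted ratio limits that chose them, and the other 188 genes lie on both sides.

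The 73 genes ran over a wide range of abundance. Their levels lay between 403 and 3939 FPKM in blue light, with a median of 825, and between 408 and 3333 FPKM in darkness, with a median of 797. Summed over the 73 genes, they held 7.01% of all FPKM in blue light and 6.81% in darkness. At least 1000 FPKM was reached by 21 of them in blue light and by 27 in darkness, and by 19 in both conditions, while 21 stayed under 600 FPKM in both. Ranked among 4762 nuclear genes, the highest steady gene stood at place 10 in blue light and at place 27 in darkness.

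The highest of them was CML063C (chromosome 12, 137710 to 138469, positions as deposited; the genome build is not given in the sources used here), with 3939 FPKM in blue light and 3333 FPKM in darkness, a ratio of 1.18. CMK296C (chromosome 11, 805447 to 805852) followed with 3608 FPKM in blue light and 3241 FPKM in darkness. CMG162C (chromosome 7, 407497 to 408043) had 2852 FPKM in blue light and 2596 FPKM in darkness. These 3 genes were all a little higher in blue light, with ratios of 1.18, 1.11 and 1.099. CMQ292C (chromosome 17, 756867 to 757651) had 2421 FPKM in blue light and 2112 FPKM in darkness. CMT026C (chromosome 20, 68750 to 69261) had 2228 FPKM in blue light and 2025 FPKM in darkness. With CMT026C the genes over 2000 FPKM end: 5 passed that level in each condition, and they were the same 5.

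The next 2 genes in order of level leaned the other way. CMC053C (chromosome 3, 122627 to 123195) had 1817 FPKM in blue light and 1923 FPKM in darkness. CMQ247C (chromosome 17, 629950 to 632815) had 1621 FPKM in blue light and 1881 FPKM in darkness, a ratio of 0.862. The last 3 of the 10 highest genes were again slightly higher in blue light. CMR320C (chromosome 18, 772755 to 773226) had 1857 FPKM in blue light and 1596 FPKM in darkness. CMR150C, on the same chromosome (379968 to 380457), had 1706 FPKM in blue light and 1524 FPKM in darkness. CMB004C (chromosome 2, 10549 to 11014) had 1544 FPKM in blue light and 1400 FPKM in darkness. All 10 of these ratios lay between 0.862 and 1.18, and 8 of the 10 were above 1. A rough error of their log2 ratios is the log2 fold change over the test statistic in the authors' deposited table. It ran from 0.16 to 0.40 in these genes except CMQ247C, where it was 1.26.

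Across the 73 genes the ratio of blue light over darkness had a median of 1.01, or 0.01 on the log2 scale, with 39 genes above 1 and 34 below. All tested genes with a finite ratio, 4496 of them, had a median of -0.02 on the same log2 scale and quartiles of -0.65 and 0.74. Quartiles of the steady genes' ratios were 0.945 and 1.12, a range set in part by the limits that chose the genes. A ratio within 10% of 1 was found in 33 of the 73 genes, and within 5% of 1 in 20.

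The gene nearest to equality was CMP126C (chromosome 16, 313295 to 314123), with 510.3 FPKM in blue light and 510 FPKM in darkness. CMJ242C (chromosome 10, 654667 to 655447) had 638 FPKM in blue light and 640 FPKM in darkness, a ratio of 0.997. CMR099C (chromosome 18, 265162 to 266123) had 1132 FPKM in blue light and 1140 FPKM in darkness. CMP007C (chromosome 16, 15421 to 15848) had 1213 FPKM in blue light and 1222 FPKM in darkness. These 4 genes differed between the conditions by less than 1% of their level.

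At the upper limit stood CMI059C (chromosome 9, 170444 to 170882), with 749 FPKM in blue light and 600 FPKM in darkness, a ratio of 1.249. CMA082C (chromosome 1, 254625 to 255454) had 1328 FPKM in blue light and 1068 FPKM in darkness, and CMM227C (chromosome 13, 561818 to 562973) had 859 FPKM in blue light and 691 FPKM in darkness. Just past the limit, and so not included, were CMP081C with 1073 FPKM in blue light and 852 FPKM in darkness, and CMD140C with 961 FPKM in blue light and 761 FPKM in darkness. The ratios on the 2 sides of the limit were nearly alike, 1.24 to 1.249 inside and 1.26 outside.

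At the lower limit stood CMP154C (chromosome 16, 387219 to 387724), with 839 FPKM in blue light and 1039 FPKM in darkness, a ratio of 0.808. CMM243C (chromosome 13, 605256 to 606661) had 451 FPKM in blue light and 555 FPKM in darkness. CMQ251C (chromosome 17, 640512 to 641239) had 913 FPKM in blue light and 1118 FPKM in darkness, a ratio of 0.816. Outside this limit came CML246C with 1579 FPKM in blue light and 1997 FPKM in darkness, and CMJ110C with 828 FPKM in blue light and 1053 FPKM in darkness. The 2 genes nearest inside had ratios of 0.808 and 0.813, against 0.791 and 0.786 in the 2 outside.

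The abundance limit likewise divided genes of nearly equal level. CMR296C (chromosome 18, 709456 to 710170), with 403 FPKM in blue light and 409 FPKM in darkness, and CMI113C (chromosome 9, 320630 to 321110), with 438 FPKM in blue light and 408 FPKM in darkness, were the lowest genes included. CMS356C, with 396 FPKM in blue light and 432 FPKM in darkness, and CME186C, with 409 FPKM in blue light and 395 FPKM in darkness, were the nearest left outside. In the authors' deposited table none of these 4 genes was called changed, with q-values between 0.693 and 0.936.

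**Figure D2:**
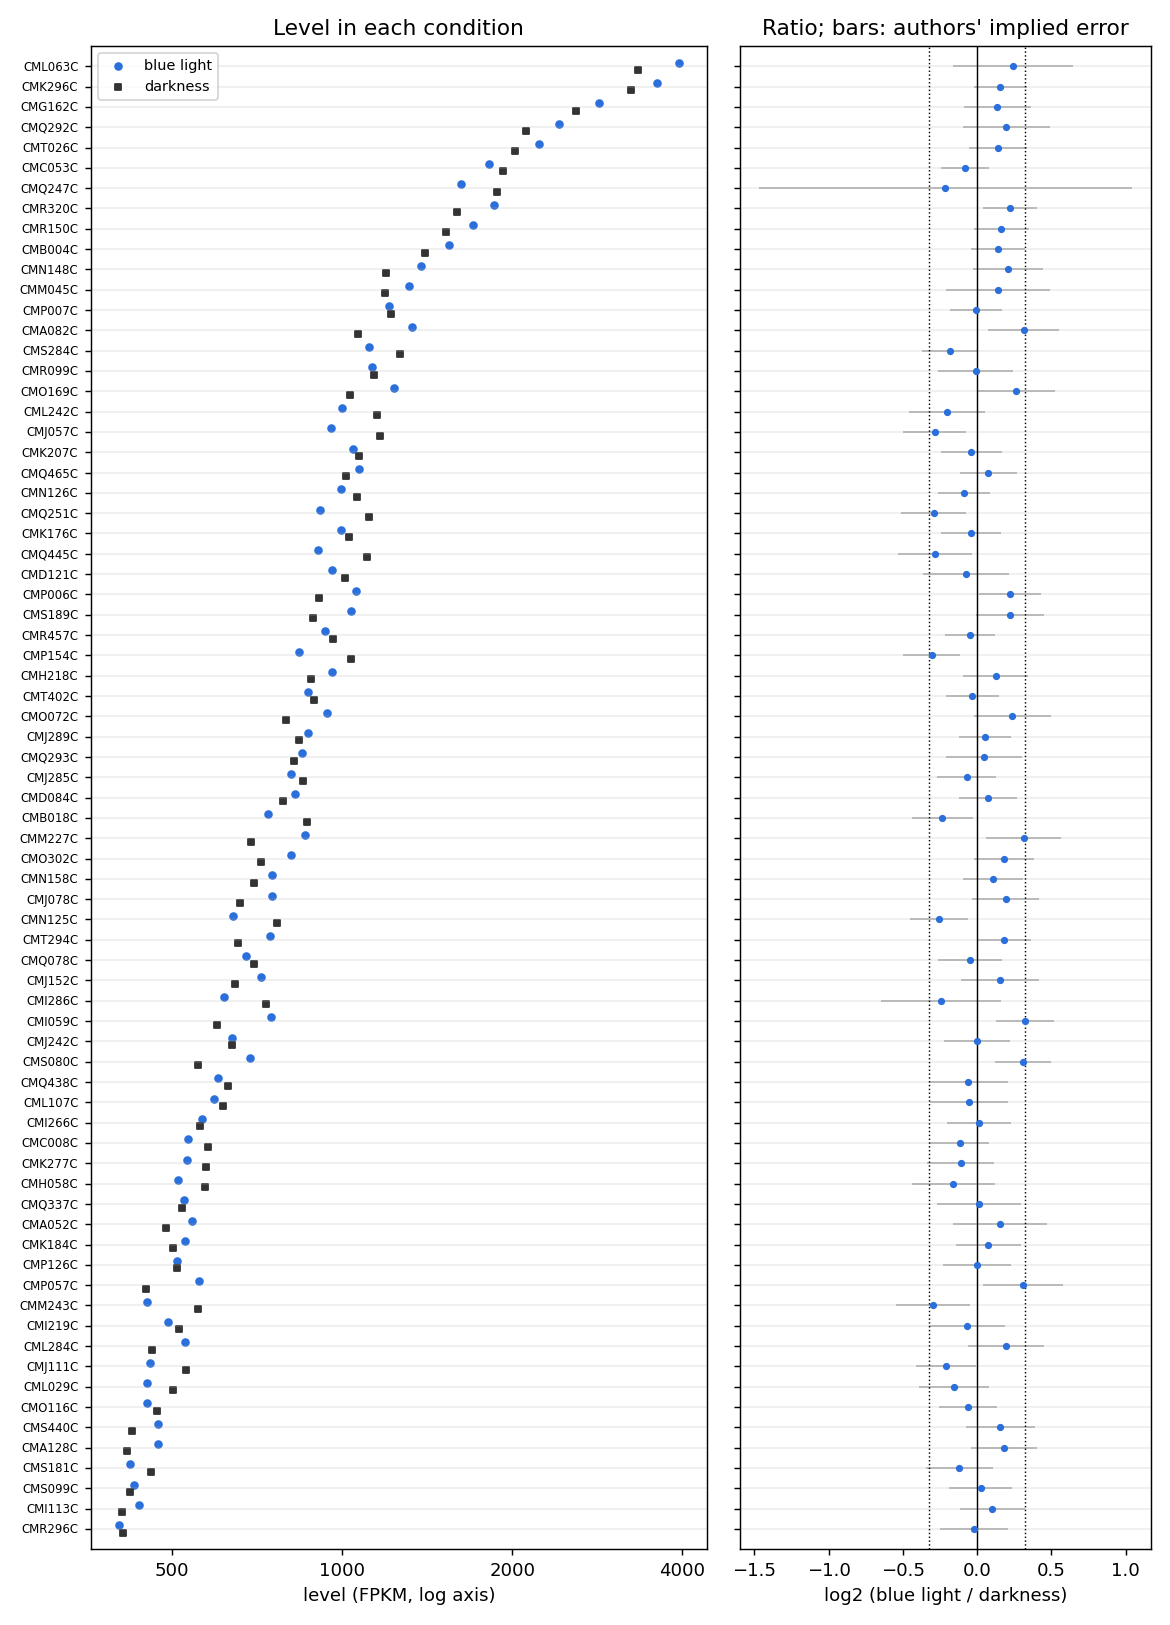
Left: level of each of the 73 genes in blue light (circles) and darkness (squares), in FPKM on a log axis, ordered by mean level. Right: log2 ratio of blue light over darkness, with dotted lines at the ratio limits. Bars are plus and minus a rough error, the log2 fold change over the authors' test statistic. The bar of CMQ247C, 1.26 to each side, is far wider than the others.

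How precisely each ratio was known differed among the genes. As a rough error of a log2 ratio, the deposited log2 fold change was divided by the deposited test statistic. The authors' Cuffdiff p-values do not follow that statistic alone, so this error is not the one behind them. CMI286C and CMC008C had nearly equal statistics of -0.608 and -0.603, but Cuffdiff p-values of 0.4165 and 0.6081. From the authors' deposited table this error had a median of 0.22 over the 73 genes, with quartiles of 0.20 and 0.26, against a median of 0.31 over 4496 tested genes and of 0.23 over the 261 abundant nuclear genes. It was under the median of all tested genes in 68 of the 73. The log2 ratio itself was smaller than its error in 57 of the 73 genes. The limits that chose the genes keep this ratio within 0.32 of 0, so nothing is read from that count.

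The smallest error by the authors' deposited table belonged to CMC053C, at 0.16 on the log2 scale, and CML063C and CMI286C (chromosome 9, 751721 to 754509) each had 0.40. CMQ247C, the longest of the 73 genes with a span of 2865 bp, stood alone at 1.26. By this rough error its ratio of 0.862 was the least certain of the 73. In 4 of the 73 genes the error was wider than the ratio limits themselves. By the authors' deposited table the lowest q-value of the 73 genes was 0.188, in CMP154C, and the highest was 0.993, in CMP126C.

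Values of the single libraries are not printed in the deposited table, but they could be recovered for some genes. Each deposited FPKM is the mean of 2 libraries, and each library's value is a whole number of fragments times a step that depends on the gene's span. The steps were fitted from the table. The fitted totals by which the libraries were scaled were 540167 and 418040 fragments in blue light and 845127 and 643989 fragments in darkness, so the libraries of a condition can be called the deeper and the shallower. The labels do not tie either to a replicate number. The search took the libraries of a condition as up to 4-fold apart. It covered the 38 steady genes spanning at least 650 bp, where the step is linear in the span. Within it, 28 genes had exactly 1 combination of whole fragments that matched the deposited digits. The other 10 had several, up to 1307 combinations in CMQ247C. With a search up to 8-fold apart, 25 genes had exactly 1, so the values of some of the 28 rest on the narrower search. The 28 genes had a median mean level of 628 FPKM and the 10 had 1194 FPKM, so the highest genes are not represented. Genes with a log2 ratio near 0 are also more often recovered, because more decimals of it are printed.

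In these 28 genes the blue light libraries lay further apart than the darkness libraries; the difference was not tested. The difference between the deeper and the shallower library ranged from -0.48 to 0.45 on the log2 scale in blue light and from -0.07 to 0.27 in darkness. Its root mean square was 0.21 in blue light and 0.11 in darkness, where counting error alone would give 0.13 in blue light and 0.10 in darkness. The larger gap was the blue light one in 23 of the 28 genes. Fragments per gene and library ran from 74 to 671 in blue light and from 136 to 1017 in darkness, so the blue light libraries were also the thinner ones; the part of depth in the wider spread beyond counting error was not tested. Over the other 32 recovered genes among the 261 abundant ones the root mean square was 0.25 in blue light and 0.18 in darkness.

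The largest gap belonged to CMQ251C, with 764 and 1062 FPKM in the blue light libraries, against 1185 and 1051 FPKM in the darkness libraries, the deeper library first in each condition. The shallower blue light library thus lay inside the range of darkness, and the deeper one lay below both darkness libraries. CMS181C had 488 and 356 FPKM in blue light, against 458 and 459 FPKM in darkness, in the same order. Here the darkness libraries were nearly equal and the blue light libraries lay on either side of them. CMA082C had 1491 and 1165 FPKM in blue light, against 1112 and 1025 FPKM in darkness. Its conditions did not overlap, and its deeper blue light library was the highest of the 4.

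Genes near the limits on the means could be further from equality in single libraries. CMM227C had 772 and 946 FPKM in blue light, against 720 and 662 FPKM in darkness, with no overlap. CMM243C had 439 and 463 FPKM in blue light, against 550 and 561 FPKM in darkness, and the 4 values fell into 2 tight pairs. CMJ057C had 915 and 998 FPKM in blue light, against 1275 and 1058 FPKM in darkness, and it showed the widest gap of the 28 between darkness libraries. CMP057C had 594 and 522 FPKM in blue light, against 444 and 458 FPKM in darkness, again without overlap.

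Among the genes nearest to equal means, single libraries were less equal than the means. CMP126C had 562 and 459 FPKM in blue light, against 546 and 474 FPKM in darkness, with the deeper library the higher in both conditions. CMR099C had 1017 and 1246 FPKM in blue light, against 1161 and 1119 FPKM in darkness, so that the blue light libraries enclosed the darkness ones. CMJ242C had 656 and 619 FPKM in blue light, against 683 and 596 FPKM in darkness. In all 3 genes the conditions overlapped.

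Other genes were close to steady in every library. CMQ438C had 615 and 592 FPKM in blue light, against 636 and 622 FPKM in darkness. CMK277C had 530 and 535 FPKM in blue light, against 572 and 578 FPKM in darkness. CMI219C had 497 and 485 FPKM in blue light, against 528 and 502 FPKM in darkness. Each of these 3 genes was lower in both blue light libraries than in either darkness library, with all pairwise ratios between 0.916 and 0.99. CMQ337C had 507 and 543 FPKM in blue light, against 510 and 532 FPKM in darkness, and CMD121C had 967 and 953 FPKM in blue light, against 1046 and 976 FPKM in darkness. CMQ337C overlapped between the conditions, and CMD121C did not. CMA052C had 529 and 557 FPKM in blue light, against 489 and 487 FPKM in darkness, so both blue light libraries were the higher.

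Pairing each blue light library with each darkness library gives 4 ratios per gene. All 4 lay inside the limits in 19 of the 28 genes, 3 did in 2 genes, and 2 did in the other 7. The extremes were 0.644 in CMQ251C and 1.46 in CMA082C. The libraries of the 2 conditions overlapped in 11 of the 28 genes, lay higher in blue light in 8 and lower in 9. Thus 17 of the 28 did not overlap, while 2560 of 3210 tested genes with recovered fragments, 79.8%, did not. The limits used the same contrast, so nothing is read from that difference.

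**Figure D3:**
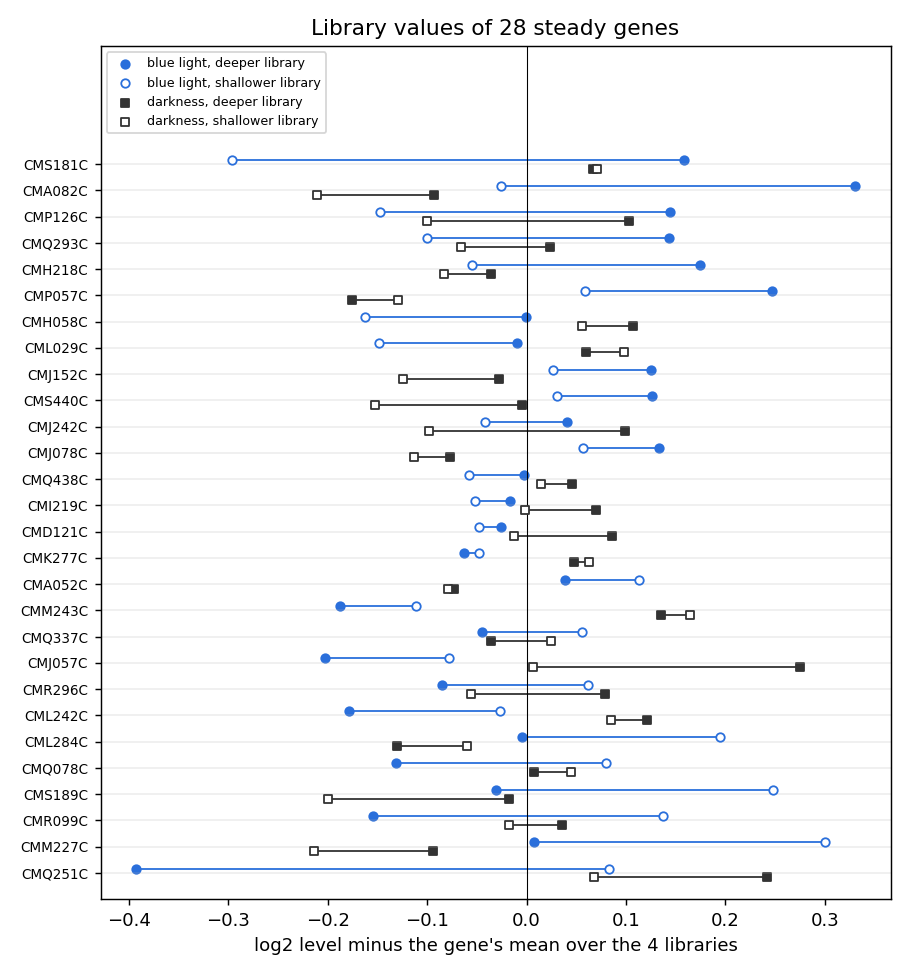
Recovered level of each library for 28 of the steady genes, as log2 FPKM minus the gene's mean over the 4 libraries. Blue circles are blue light and dark squares darkness, filled for the deeper library of a condition; the blue light pair is the wider in 23 of the 28 genes.

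The steady genes were short. Their spans had a median of 663 bp and quartiles of 489 and 1032 bp, from 336 bp in CMO116C (chromosome 15, 293287 to 293623) to 2865 bp in CMQ247C. CMO116C had 451 FPKM in blue light and 471 FPKM in darkness. The median span over 4440 nuclear genes at unshared loci of at least 300 bp was 1291 bp. It was 715 bp over the 261 abundant ones, so short spans went with a high FPKM as a whole. The length behind FPKM is less than the span, which raises shorter genes more, and its part in this was not tested. A span under 650 bp was found in 35 of the 73 steady genes, 47.9%, against 14.1% of the 4440. In the other ratio classes of the 261 abundant genes this share ran from 30.4% to 54.5%, so it was not particular to the steady genes. The 3 genes over 2000 bp were CMQ247C, CMI286C and CMA052C.

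Among the 261 abundant genes the median span was 940.5 bp in the 46 genes at least doubled in blue light, 739 bp in the 58 with ratios of 1/0.8 to 2, 640 bp in the 51 with ratios of 0.5 to 0.8, and 645 bp in the 33 with ratios of 0.5 or less. The steady genes thus fell between the raised and the lowered ones in span, nearer to the lowered ones. These medians were not tested. The 35 steady genes under 650 bp had a median mean level of 856 FPKM and the 38 longer ones 697 FPKM. For 72 of the 73 genes the span differed from the reference gene's length by at most 3 bp, and in CMP057C it was shorter by 519 bp. In that reference 99.6% of the lengths of protein-coding genes are multiples of 3, so these are coding lengths.

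**Figure D4:**
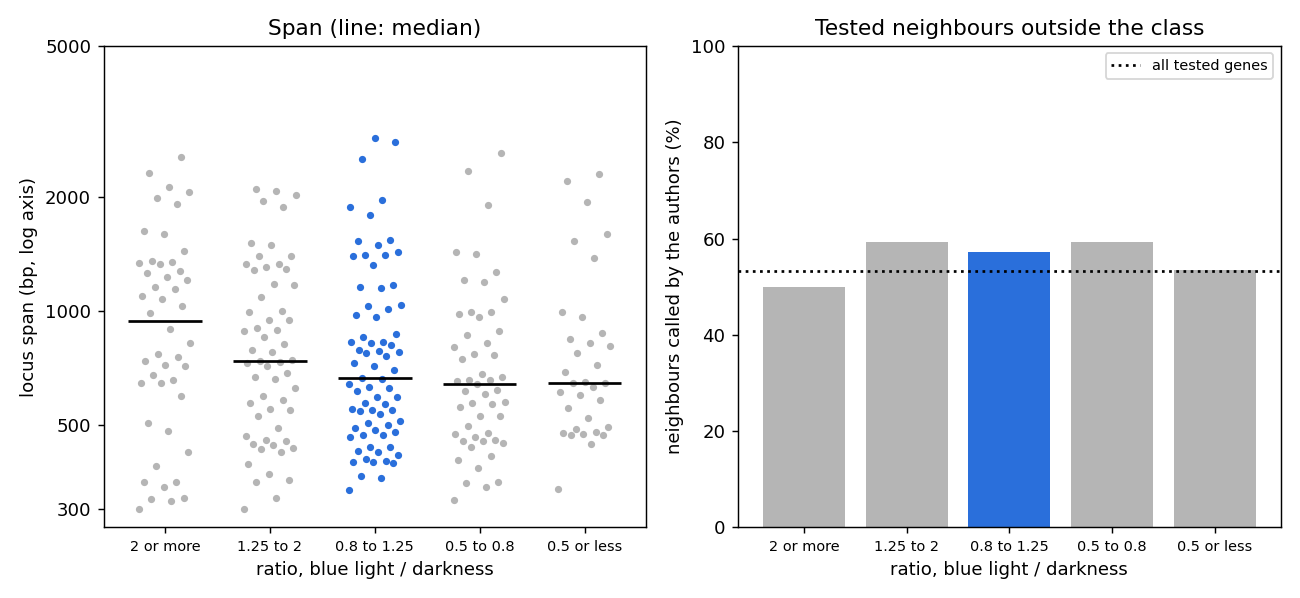
Left: locus span in bp (log axis) of the 261 abundant nuclear genes by ratio of blue light over darkness, a point per gene and a line at the median, which is 663 bp for the steady genes. Right: share of each class's tested neighbours, members of the class left out, that the authors called changed, in percent, with the 53.2% of all tested genes dotted; the steady genes' neighbours stand at 57.1%.

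The genes were spread over the nuclear genome. They lay on 18 of the 20 nuclear chromosomes, with none on chromosomes 5 and 6, which held 5 and 4 of the 261 abundant genes. Chromosome 17 held 9 steady genes, chromosome 10 held 7 and chromosome 19 held 6. Relative to the nuclear genes at unshared loci of at least 300 bp, the share was highest on chromosome 10, with 7 of 210 or 3.33%. Chromosome 1 followed with 3 of 99 or 3.03%, against 1.64% over the whole nucleus. Chromosome 20, with 461 such genes, held 3 steady ones. Counts this small were not tested.

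**Figure D5:**
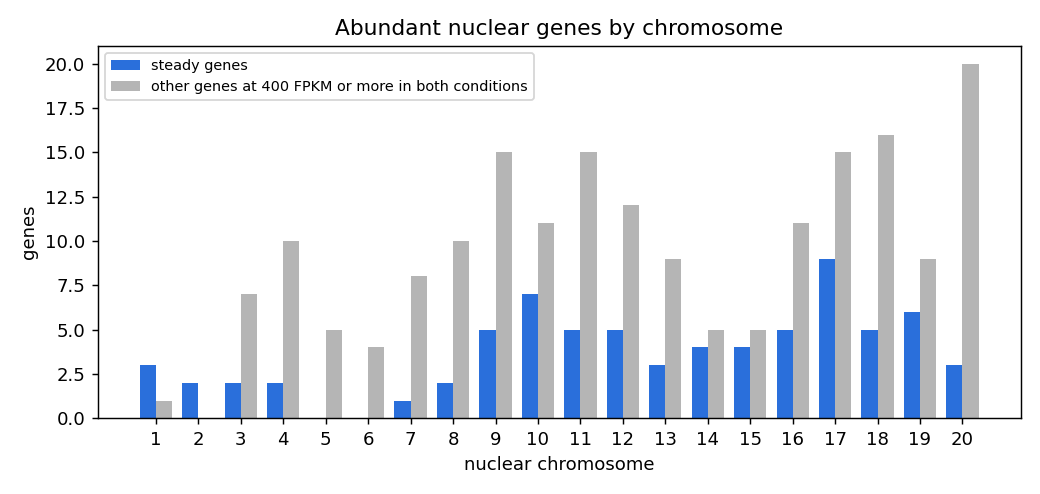
Number of genes on each of the 20 nuclear chromosomes, for the 73 steady genes (blue) and for the rest of the 261 abundant nuclear genes (grey). Steady genes are most numerous on chromosome 17, with 9, and absent from chromosomes 5 and 6.

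Steady genes stood side by side in 3 places. CMN125C and CMN126C, on chromosome 14, were 243 bp apart, with 642 FPKM in blue light and 769 FPKM in darkness for CMN125C and 998 FPKM in blue light and 1061 FPKM in darkness for CMN126C. CMP006C and CMP007C, on chromosome 16, were 500 bp apart, and CMP006C had 1059 FPKM in blue light and 909 FPKM in darkness. CMQ292C and CMQ293C, on chromosome 17, were 639 bp apart. CMQ293C, the weaker of that pair, had 848 FPKM in blue light and 821 FPKM in darkness, and its libraries had 919 and 776 FPKM in blue light, against 846 and 795 FPKM in darkness. The genes of a pair differed in mean level by up to 2.72-fold, between CMQ292C and CMQ293C. CMP006C and CMP007C, with CMB004C on chromosome 2 and CMC008C on chromosome 3, were the 4 steady genes within 20 kb of the outermost listed gene of their chromosome.

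The neighbours of the steady genes were called changed about as often as genes in general. Apart from each other and from shared loci, the 73 genes had 135 distinct nearest neighbours, of which 126 were tested and 72, 57.1%, were called changed in the authors' deposited table, 39 higher and 33 lower in blue light. That share was close to the 53.2% of all tested genes. In the other ratio classes of abundant genes the share of called neighbours was between 50% and 59.3%. Both neighbours were called in 18 of the 60 steady genes with 2 tested neighbours, 30.0%, against 29% of 3689 nuclear genes at unshared loci. A neighbour called higher and another called lower in blue light flanked 8 of the 60, 13.3%, against 14.4% of the 3689. The neighbours were less abundant, with a median mean level of 113 FPKM, and 5 of the 126 reached 400 FPKM in both conditions.

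Some steady genes lay directly beside a gene with a large called change. The following 4 neighbours were chosen after their values were seen. CMQ436C, which precedes CMQ438C with 1413 bp between them, had 313 FPKM in blue light and 7.64 FPKM in darkness, a called rise of 5.36 on the log2 scale in the authors' deposited table. CMS188C, 527 bp before CMS189C, had 2313 FPKM in blue light and 406 FPKM in darkness and was also called. Beside it CMS189C had 936 and 1135 FPKM in its blue light libraries, against 944 and 832 FPKM in its darkness libraries. CMS079C, 498 bp before CMS080C, had 72.9 FPKM in blue light and 427 FPKM in darkness, and CMT028C, 1300 bp after CMT026C, had 37.8 FPKM in blue light and 187 FPKM in darkness. Both were called lower in the authors' deposited table. In all, 15 of the 126 neighbours, 11.9%, were called with a change of at least 4-fold, 12 of them higher and 3 lower in blue light. The same held for 457 of 4503 tested genes, 10.1%, of which 332 were higher and 125 lower, so such changes were about as frequent beside the steady genes as in the whole table.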

How the data were processed

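Per the submitters' processing notes, the authors used TopHat2 2.0.5 for alignment and Cuffdiff for the comparison. The build, not given in the sources used here, limits positions to those deposited. Per the file headers, the deposited table gives 1 FPKM value per condition for each gene, besides the authors' log2 fold change, a test statistic (a score), and a p-value and q-value. A gene was called at a q-value under 0.05 with a valid test. No test was added, since the levels chose the genes. The genes and lists were chosen with earlier results of these data known. The ratio was computed from the FPKM values without a pseudocount. Named are the 10 highest genes, the 4 nearest to a ratio of 1, the 3 highest and 3 lowest ratios, the genes on both sides of each limit, the shortest and longest, the 3 with the largest gap between libraries, and others that a sentence singles out after their values were seen. Fragments per library were fitted with scipy from the rounding of the FPKM values and log2 fold changes, with the libraries of a condition searched up to 4-fold apart. The fit was tested on simulated data drawn from the same model, which cannot show that the model holds. In the deposited values 149 of 3880 genes had no solution, among them 6 of 304 with a mean of at least 400 FPKM. Genes with 0 FPKM in a condition, or without a finite and nonzero log2 fold change, were not searched. They count among those without a solution, so the 149 are not a failure rate of the fit.  Sequences, product names and promoter motifs were not analysed here.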

Additional observations from a re-analysis of the deposited data

How the results depend on the processing

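With the minimum level, the centring, the shared loci or the span limit altered, the number of steady genes stayed between 49 and 108, within 1.5 times 73. It was 37 with ratios between 0.9 and 1/0.9 and 125 with ratios between 2/3 and 1.5, limits that by construction take fewer and more genes. In that wider window 15 genes were called by the authors, against 0 as reported. The median log2 ratio of the 73 genes was 0.01 as reported and at most 0.03 under the other pseudocounts and centring. Leaving out 1 library at a time, the median log2 ratio of the 28 genes with recovered fragments ran from -0.06 to 0.03, and between 23 and 26 of the 28 kept a ratio inside the limits. The number with 1 solution was 31 or 25 when libraries were searched up to 2-fold or 8-fold apart, alternatives chosen after seeing the data. No paired analysis was possible because the deposited columns carry no replicate number. The promoter motif and protein alternatives were not run. The library totals, at most 845127 fragments as scaled, limit the precision of single values, and the counting errors given cover no other source of spread.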
